A study of Mus musculus with 6 samples.

Results

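The nuclear genes for the respiratory chain and the mitochondrial ATP synthase were compared between atria of mice on a high-fat diet (HFD) and atria of mice on a control diet. The set was taken by gene symbol, as every gene whose name begins with Nduf, Uqcr, Atp5 or Cox4 to Cox8, together with Sdha, Sdhb, Sdhc, Sdhd and Cyc1, without genes of the mitochondrial chromosome and without 3 names that end in -ps, the mark of a pseudogene. This gave 93 of the 43432 genes in the deposited table: 36 genes of complex I, 7 complex I assembly factors (Ndufaf genes), 4 genes of complex II, 9 of complex III, 19 of complex IV, 15 of complex V (the ATP synthase), 2 further genes with an Atp5 name (Atp5s and Atp5sl) and the supercomplex factor Cox7a2l. Ndufa4 and Ndufa4l2 carry complex I names but were placed with complex IV, where the NDUFA4 protein is found.

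The samples were atrial tissue, right and left, of wild-type C57/Bl6J mice that received the HFD or control chow for 10 weeks from 6 weeks of age, with 3 libraries per diet (HFD 1 to 3 and Control 1 to 3). Diet-induced obesity served the study as a model of obesity-related atrial fibrillation, and both groups were otherwise untreated. The diet of each library was read from its title, which matches the Case and Control columns of the deposited values. For all 6 libraries the labels name the other diet in their treatment field. Every direction given here depends on that choice. Whether a library came from 1 mouse or from pooled mice is not given in the sources used here, so that p-values measure the spread between these libraries.

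The respiratory chain passes electrons from NADH (complex I) and succinate (complex II) through complex III and cytochrome c to oxygen at complex IV, and pumps protons that drive ATP synthesis at complex V. A few core subunits of these complexes are encoded by mitochondrial DNA, and the nuclear genes supply all other subunits. Heart muscle is among the tissues richest in these complexes, and several complex IV subunits exist there in a heart and muscle isoform beside a ubiquitous one.

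Values are normalized counts, the read count of a gene divided by a size factor of its library. The libraries held 15874251 to 28971508 reads on genes, with Control 2 the deepest. Reads on mitochondrial genes took 30.7% of Control 2 and 19.5% to 24.4% of the other libraries. The diets were set against each other by limma, fitted to log2(normalized count + 1), with p-values adjusted by the Benjamini-Hochberg method over the 15275 genes that reached a mean of 10 normalized counts. Of the 93 genes, 91 were tested. Cox8c, a testis isoform, was listed at 0 in all libraries, and Cox7b2 had 2.19 normalized counts in Control 3 and 0 elsewhere, which is below the limit of 3 reads (2.05 to 3.41 normalized counts, counting error only). In each library the other 91 genes together took between 3.17% and 4.05% of the reads outside mitochondrial genes.

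In the atria these genes differed widely in level. Per kilobase of transcript, the median gene of complex I had 3127 normalized counts, that of complex II 4378, that of complex III 7024, that of complex IV 5550 and that of complex V 8662. The assembly factors, which help to build complex I and are not part of it, had a median of 241 per kilobase. The highest level of all was that of Atp5b, the catalytic beta subunit of the ATP synthase, with 39920 per kilobase. Cox4i1, the ubiquitous form of complex IV subunit 4, was the highest of its complex with 23195 per kilobase. In complex III the highest and the lowest gene, Uqcrq and Uqcrb, were 2.23-fold apart. In complex I the lowest gene was Ndufb4, an accessory subunit, with 804 per kilobase. Among the genes tested of complexes IV and V the lowest were Cox6b2, a testis isoform, with 54.7 per kilobase and Atp5l with 173 per kilobase. The low levels of Atp5l, Ndufb4 and Uqcrb concern reads assigned to those genes alone. They leave out the copies of these genes, processed pseudogenes that share part of their sequence (described below). Of the sum with its copies, Ndufb4 held 36.2% to 53.8% and Uqcrb 70.4% to 80.3%. Their places as the lowest genes therefore hold for the reads as assigned, and the ranks with copies added were not examined.

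**Figure D1:**
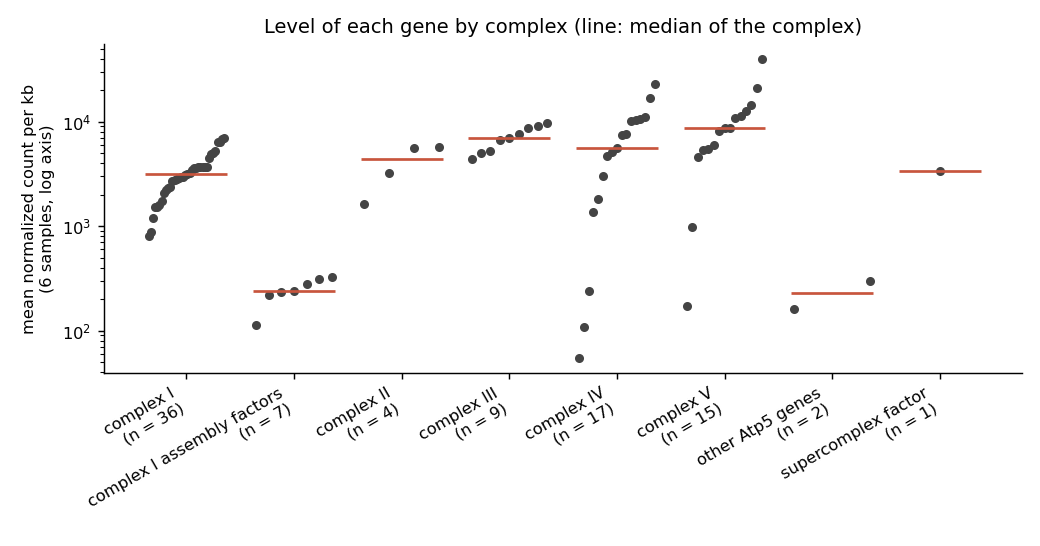
Mean normalized count per kilobase of transcript over the 6 libraries (log axis) for the 91 genes tested, each point a gene, with a line at the median of each complex. The assembly factors and the 2 further Atp5 genes lie at or below 326 per kilobase, and the medians of complexes I to V lie between 3127 and 8662.

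Most of the genes had somewhat lower values in HFD atria, and none passed the test. Of the 91 genes, 85 had a fitted fold change below 0, against 49.2% of all genes tested. The median log2 fold change was -0.14, against 0.0049 for all genes. The count of genes below 0 was 86 with TMM scaling or quantile normalization. It was 47 when the libraries were centred on the set itself, which moves the set towards 0 by construction. No gene of the set had an adjusted p under 0.05 in limma, where 0.746% of all genes were called (0.262% lower and 0.484% higher). At an unadjusted p under 0.05, 2 genes were lower in HFD (Cox7b and Cox7c) and 1 was higher (Atp5g2), against 5.55% of all genes lower and 6.66% higher (12.2% in all). These genes share libraries and vary together, so the 85 genes are not 85 independent observations. The median log2 fold change was -0.12 for complex I, -0.14 for complex II, -0.14 for complex III, -0.18 for complex IV, -0.12 for complex V and -0.22 for the assembly factors. The median gene was thus 9.43% lower in HFD, and the median standard error of a log2 fold change was 0.13.

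The shift was not shared by all libraries of a diet. For each gene the log2 value in a library was set against the gene's mean over the 6 libraries, and the median of these differences over the 91 genes was 0.11 in Control 1, 0.17 in Control 2 and -0.07 in Control 3. It was -0.04 in HFD 1, -0.22 in HFD 2 and 0.07 in HFD 3. The diets overlapped, since HFD 3 lay above Control 3. HFD 2 was the lowest of the 6 libraries for 73 of the 91 genes, and Control 2 was the highest for 54. Without HFD 2 the median log2 fold change was -0.05, with 64 genes below 0. Without Control 2 it was -0.08, with 77 genes below 0. Without HFD 3 it was -0.20, 14 genes were lower at an unadjusted p under 0.05, and Cox7c had an adjusted p of 0.0091 in limma.

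**Figure D2:**
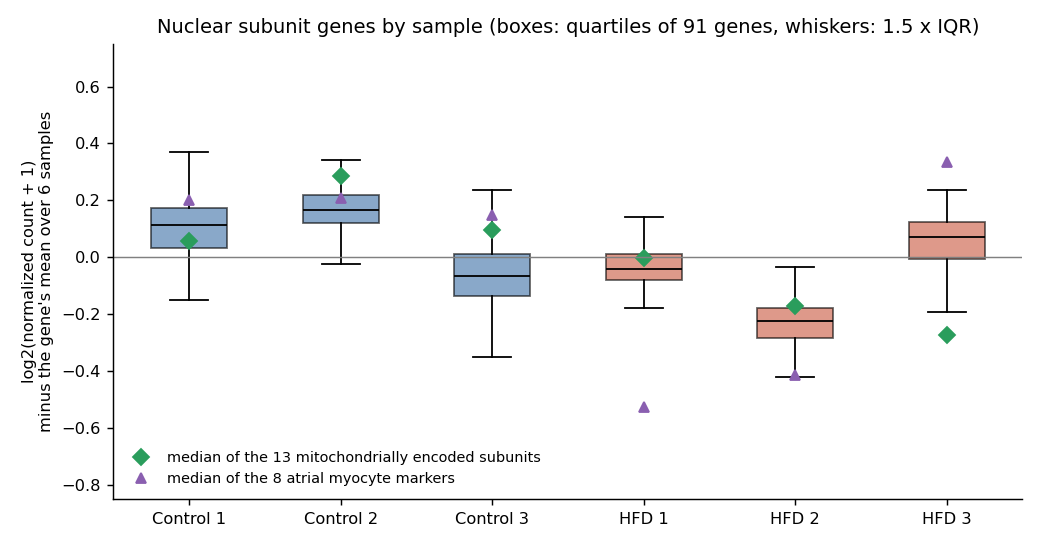
Difference of log2(normalized count + 1) from each gene's own mean, by library, for the 91 nuclear genes (boxes with the quartiles and the median, whiskers to 1.5 times the interquartile range, outlying genes not drawn), with the median of the 13 mitochondrially encoded subunits (diamonds) and of 8 atrial myocyte markers (triangles). The boxes of HFD 2 and Control 2 lie lowest and highest, and HFD 3 lies above Control 3 for the nuclear genes and below all other libraries for the mitochondrially encoded ones.

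Complex I takes electrons from NADH. Of its 36 genes, 35 were fitted below 0 and none had an unadjusted p under 0.05. Ndufs1, the largest core subunit, had 9460, 10331 and 10162 normalized counts in Control 1 to 3 and 8808, 8242 and 9277 in HFD 1 to 3. All HFD values lay below all Control values, which held for 9.17% of all genes tested and for no other complex I gene. Its log2 fold change was -0.19 ± 0.11 (SE), with an adjusted p of 0.55 in limma. Ndufv1, the core subunit that binds NADH, had 8924, 9587 and 7909 in Control and 7838, 6991 and 8355 in HFD, and the groups overlapped (log2 fold change -0.19 ± 0.12). Ndufb10, an accessory subunit, was the complex I gene fitted above 0, with a log2 fold change of 0.01 ± 0.14. Among the assembly factors all 7 were fitted below 0. Ndufaf6 had 141, 129 and 153 normalized counts in Control and 84.4, 90.8 and 134 in HFD, where HFD 3 lay within the Control range. Its log2 fold change of -0.48 ± 0.22 had an adjusted p of 0.42 in limma.

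Complex II, succinate dehydrogenase, also belongs to the citric acid cycle. All of its 4 genes were fitted below 0. Sdha, the flavoprotein that oxidizes succinate, had 16937, 18305 and 17329 normalized counts in Control and 15884, 15355 and 16299 in HFD. The groups did not overlap, and the log2 fold change was -0.14 ± 0.11 with an adjusted p of 0.66 in limma. Sdhb, the iron-sulfur subunit, overlapped between the diets with a log2 fold change of -0.16 ± 0.14. In complex III, 8 of 9 genes were fitted below 0. Uqcrb, a small ubiquinone-binding subunit, had 2376, 2751 and 2514 in Control and 2269, 1976 and 2213 in HFD, with no overlap, and the log2 fold change was -0.24 ± 0.11 (adjusted p 0.42 in limma). The 2 redox subunits did overlap: the log2 fold change was -0.08 ± 0.13 for the Rieske protein gene Uqcrfs1 and -0.15 ± 0.16 for the cytochrome c1 gene Cyc1. Uqcr10 was fitted at 0.01 ± 0.11.

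In complex IV, 15 of 17 genes tested were fitted below 0, and in 4 of them (Cox6c, Cox7b, Cox7c and Ndufa4) all HFD values lay below all Control values, against 9.17% of all genes tested. Cox7b, a small structural subunit encoded on the X chromosome (GRCm38 chrX:106015700-106022450), had 5549, 6108 and 5213 normalized counts in Control and 4820, 4471 and 4857 in HFD. The HFD libraries lay close together below the lowest Control library. The log2 fold change was -0.25 ± 0.11, or 16.0% lower, with an unadjusted p of 0.044 and an adjusted p of 0.39 in limma. Ndufa4 had 7005, 7717 and 6590 in Control and 6138, 5396 and 6371 in HFD, with a log2 fold change of -0.25 ± 0.12 and an adjusted p of 0.43 in limma. The nuclear subunits Cox4i1 and Cox5a overlapped between the diets, with log2 fold changes of -0.07 ± 0.15 for Cox4i1 and -0.15 ± 0.14 for Cox5a.

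In complex V, 13 of 15 genes were fitted below 0. Atp5b had 80232, 83424 and 74381 normalized counts in Control and 75970, 67628 and 77282 in HFD. The groups overlapped, and the log2 fold change was -0.11 ± 0.15 with a 95% interval of -0.45 to 0.23. Atp5a1, the alpha subunit that forms the catalytic head with the beta subunit, gave -0.12 ± 0.15. Atp5h, a subunit of the peripheral stalk, had 7738, 8228 and 7112 in Control and 6794, 5653 and 7073 in HFD. Its groups did not overlap, although HFD 3 and Control 3 lay close together, and its log2 fold change was -0.25 ± 0.12 (adjusted p 0.47 in limma). Atp5c1, the gamma subunit of the central stalk, was the other gene with all HFD values below all Control values. Over the whole set 11 genes had all HFD values below all Control values and 1, Atp5g2, had all above, against 9.17% and 8.86% of all genes tested.

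The genes that stood farthest from the rest of the set were Cox7c and Atp5g2, and both share their sequence with other genes. Cox7c encodes a small subunit of complex IV and lies on the minus strand of chromosome 13 (GRCm38 chr13:86044816-86046904). It had 767, 1265 and 920 normalized counts in Control and 440, 377 and 628 in HFD. All HFD values lay below all Control values, the log2 fold change was -1.03 ± 0.22 with a 95% interval of -1.51 to -0.55, and the unadjusted p of 0.00072 became an adjusted p of 0.066 in limma. DESeq2 on the recovered reads, which called 2.76% of its genes, gave an adjusted p of 0.00027, and edgeR's quasi-likelihood test gave 0.075.

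Cox7c has a pair of close processed pseudogenes, gene copies made from a spliced transcript. Another, Gm20091, shared 1.22% of the windows described below, was listed at 0 in all libraries and was not counted as a copy. Gm12338 lies at chr11:75599763-75599954 (GRCm38, minus strand) and Gm10012 at chr17:25901856-25902227 (GRCm38, plus strand). The 192 bases of the Cox7c reading frame are shown here beside the same frame in both copies, from the transcripts of GENCODE M21, 5′ to 3′ on the coding strand, with capitals where a base differs from Cox7c.
Cox7c: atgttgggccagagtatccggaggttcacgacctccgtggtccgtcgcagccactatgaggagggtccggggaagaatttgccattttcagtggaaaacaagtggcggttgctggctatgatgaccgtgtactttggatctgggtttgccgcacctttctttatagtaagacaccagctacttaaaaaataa
Gm12338: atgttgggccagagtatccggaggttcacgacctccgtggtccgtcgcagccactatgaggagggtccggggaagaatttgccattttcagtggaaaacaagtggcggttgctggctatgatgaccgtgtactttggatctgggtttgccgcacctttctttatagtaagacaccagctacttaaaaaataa
Gm10012: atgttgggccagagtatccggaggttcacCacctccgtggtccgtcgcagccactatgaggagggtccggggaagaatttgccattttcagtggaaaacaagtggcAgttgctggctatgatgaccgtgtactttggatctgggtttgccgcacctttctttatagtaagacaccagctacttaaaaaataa
Gm12338 has no difference from Cox7c over these 192 bases, and Gm10012 has 2, G30C and G107A (the Cox7c base, its position counted from 1 at the A of the start codon, and the base of the copy). Of the 491 windows of 50 bases in the Cox7c transcript, 53.0% also occur in another gene. The libraries were read to 50 bases, and the paper states that only uniquely mapped reads were assigned to genes. A read of 50 bases within these 192 bases of Gm12338 has the same sequence in Cox7c. Sequence alone therefore does not tell the 2 genes apart there, yet both genes held reads in every library.

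The reads assigned to the copies outnumbered those of Cox7c in each library. Gm12338 had 4388, 4253 and 3661 normalized counts in Control and 3639, 3143 and 3875 in HFD, and the groups overlapped. Gm10012 had 289, 339 and 479 in Control and 914, 862 and 662 in HFD. All HFD values of this copy lay above all Control values, with a log2 fold change of 1.16 ± 0.20 and an adjusted p of 0.031 in limma, so that it moved against Cox7c. The sum of all 3 genes was 5444, 5857 and 5060 in Control and 4993, 4382 and 5166 in HFD. The sums overlapped between the diets, and the log2 fold change of the sum was -0.17, near the median of complex IV (adjusted p 0.61 in limma). Cox7c itself made up between 8.61% and 21.6% of the sum. How reads were divided between these genes was not tested.

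Atp5g2 encodes subunit c of the ATP synthase, the ring through which protons pass, and the same mature protein is also encoded by Atp5g1 and Atp5g3. It had 396, 76.7 and 431 normalized counts in Control and 489, 601 and 619 in HFD. All HFD values lay above all Control values, and Control 2 was far below the other Control libraries. The log2 fold change was 1.26 ± 0.52 with an unadjusted p of 0.035 and an adjusted p of 0.36 in limma, and it was 0.45 without Control 2. All 392 windows of its transcript (100%) also occur in another gene, and how reads were divided between these genes was not tested. The copy Gm10175 on chromosome 7, also a processed pseudogene, had 3180, 3630 and 2425 in Control and 2601, 2081 and 2154 in HFD. A second copy, Gm10231, was listed at 0 in all libraries. Together they gave 3576, 3707 and 2856 in Control and 3090, 2682 and 2773 in HFD, with overlap, and the log2 fold change was -0.24 (adjusted p 0.50 in limma). Atp5g2 held between 2.07% and 22.4% of this sum.

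**Figure D3:**
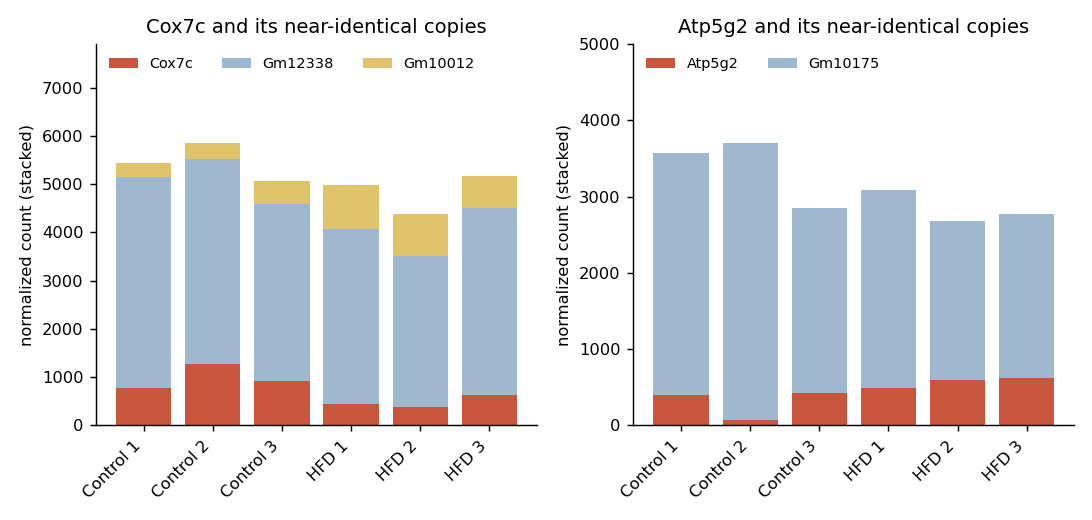
Normalized counts in each library, stacked, of Cox7c with the processed pseudogenes Gm12338 and Gm10012 (left) and of Atp5g2 with Gm10175 (right). Cox7c is smaller and Gm10012 larger in the HFD libraries, while the stacks overlap in height between the diets, from 4382 to 5166 in HFD and from 5060 to 5857 in Control for Cox7c.

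Of the 93 genes, 17 had 26 such copies (processed pseudogenes that share at least 10% of the windows of the gene and have a row of their own in the deposited table; others without a row were not counted), and 45 genes shared no window with any other gene. Atp5l, a subunit at the membrane part of the ATP synthase, had 106, 71.9 and 74.3 normalized counts in Control and 129, 78.5 and 104 in HFD, while 5 copies held 97.3% to 98.7% of the sum. Its log2 fold change was 0.29 ± 0.26 alone and -0.18 as a sum, and the sums did not overlap between the diets (4885 to 5472 in Control and 4008 to 4850 in HFD). For other genes the copies counted for less. Cox6c itself held 56.7% to 62.0% of its sum, Uqcrb 70.4% to 80.3% and Atp5h 90.2% to 92.8%, and the log2 fold changes of the sums were -0.19, -0.22 and -0.25. When the reads of copies were added to all 17 genes, the log2 fold changes of the 91 genes lay between -0.48 (Ndufaf6) and 0.40 (Cox6b2), and their SD was 0.10, against 0.20 before. Then 87 genes were fitted below 0, Cox7b alone had an unadjusted p under 0.05 (5.53% of all genes lower and 6.65% higher), and no gene had an adjusted p under 0.05 in limma, where 0.741% of all genes were called.

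**Figure D4:**
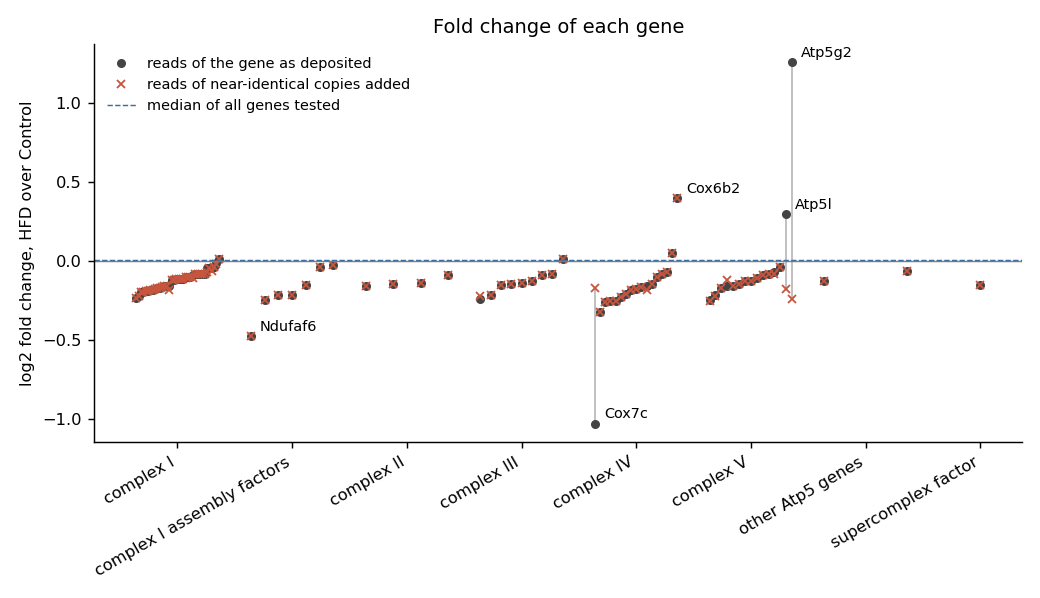
Log2 fold change (HFD over Control) of the 91 genes tested, by complex, from the reads of the gene as deposited (dots) and after the reads of its copies were added (crosses, joined by a line). Copies are processed pseudogenes that share at least 10% of the windows of the gene. Cox7c moves from -1.03 to -0.17, Atp5g2 from 1.26 to -0.24 and Atp5l from 0.29 to -0.18, and nearly all crosses lie a little below 0.

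The pairs of isoforms were compared within each library, as the log2 ratio of their normalized counts, which does not depend on the scaling of the library. In these atria the heart and muscle isoforms prevailed for subunits 6a, 7a and 8 of complex IV. Per kilobase, Cox6a2 was 9.16-fold above Cox6a1, Cox7a1 2.14-fold above Cox7a2 and Cox8b 2.49-fold above Cox8a. Cox4i2, an isoform known from lung and induced by low oxygen, stood at 0.00467 of the level of Cox4i1, and Ndufa4l2 at 0.0224 of the level of Ndufa4.

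Cox7a1 itself had 4540, 4987 and 3760 normalized counts in Control and 3718, 2942 and 3990 in HFD, with overlap, and the log2 fold change was -0.32 ± 0.15 (adjusted p 0.42 in limma). The log2 ratio of Cox7a1 to Cox7a2 was 0.54, 0.50 and 0.31 in Control and 0.26, 0.15 and 0.28 in HFD. All HFD ratios lay below all Control ratios, by 0.22 on average, with an exact two-sided permutation p of 0.1, the smallest that 3 libraries against 3 can give (0.4 after adjustment over 8 pairs). The ratio of Atp5g2 to Atp5g3 lay higher in all HFD libraries, by 1.41 on average, with the same exact permutation p, and rests on the reads of Atp5g2 described above. The other 6 pairs overlapped between the diets, with differences between -0.28 for Cox6a2 to Cox6a1 and 0.58 for Cox6b2 to Cox6b1. The ratio of Atp5g1 to Atp5g3 differed by -0.01.

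**Figure D5:**
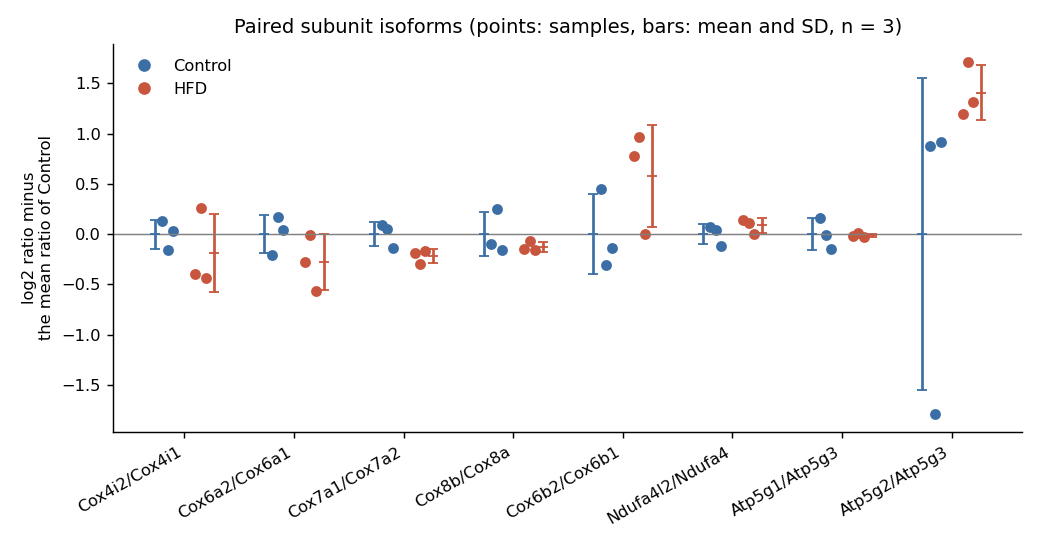
Log2 ratio of 8 pairs of subunit isoforms in each library, drawn relative to the mean ratio of the Control libraries, with the mean and SD of each diet (n = 3). The HFD points lie below all Control points for Cox7a1 to Cox7a2 and above all of them for Atp5g2 to Atp5g3, where Control 2 stands far below the other Control libraries.

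The promoters of the set were read from RefSeq (GRCm38.p6), from 250 bases before to 50 bases after the gene's start, for motifs of factors known to act on respiratory genes. A promoter was listed for 73 of the 93 genes. The motif of NRF-1, GCGCNTGCG on either strand, was found in 25 of them (34.2%), against 14.4% of the 10941 genes tested that have a promoter. The YY1 motif AAGATGGCG was found in 7 (9.59% against 3.31%), the ETS motif CCGGAAGT of NRF-2 in 5 (6.85% against 8.45%) and the motif of the estrogen-related receptors, TCAAGGTCA, in 2 (2.74% against 0.338%). The 150 bases before the start are shown for Atp5h (chr11:115419920-115420069, minus strand) and Sdhd (chr9:50603850-50603999, minus strand), 5′ to 3′, since both hold the NRF-1 motif, read from the opposite strand (capitals). Atp5h also holds the ETS motif, again on the opposite strand (its second run of capitals), and the receptor motif of Sdhd is not within this window.
Atp5h: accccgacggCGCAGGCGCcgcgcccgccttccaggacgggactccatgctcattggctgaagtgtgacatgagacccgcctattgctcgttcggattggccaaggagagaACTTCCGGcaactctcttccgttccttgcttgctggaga
Sdhd: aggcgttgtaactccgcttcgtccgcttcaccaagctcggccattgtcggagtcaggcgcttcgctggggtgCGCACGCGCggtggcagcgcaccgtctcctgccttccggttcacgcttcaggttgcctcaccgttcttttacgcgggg
The median log2 fold change was -0.09 for the 25 genes with the NRF-1 motif and -0.16 for the 47 genes tested whose promoter lacks it. When 1 more base, a C, was required at the end of the motif, 19 genes held it and the medians were -0.14 and -0.15, so that this difference rests on the letters chosen.

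The subunits encoded by mitochondrial DNA, which join the nuclear ones in complexes I, III, IV and V, were also fitted lower in HFD, all 13 of them, with a median log2 fold change of -0.31. In 7 of them all HFD values lay below all Control values, against 9.17% of all genes tested, and none had an adjusted p under 0.05 in limma. mt-Atp8 had 18186, 19961 and 16781 normalized counts in Control and 14920, 12850 and 11706 in HFD, with a log2 fold change of -0.48 ± 0.13 and an adjusted p of 0.15 in limma. For mt-Nd6 it was -0.39 ± 0.16 (adjusted p 0.36 in limma). The libraries were ordered differently from the nuclear genes: HFD 3 was the lowest for the mitochondrially encoded subunits, with a median of -0.27, and stood at 0.07 for the nuclear genes.

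The other factors that assemble the complexes were fitted lower for 33 of the 38 tested, with a median log2 fold change of -0.16. At an unadjusted p under 0.05, which 5.55% of all genes reached as lower and 6.66% as higher, 2 were lower: Surf1, needed for complex IV assembly (log2 fold change -0.34 ± 0.13), and Sdhaf1, needed for complex II (-0.32 ± 0.14), and none had an adjusted p under 0.05 in limma. Among 19 genes for mobile carriers and other entry points of electrons, 13 were fitted lower, 3 were lower and 2 were higher at an unadjusted p under 0.05 (5.55% and 6.66% of all genes), and none had an adjusted p under 0.05. Coq8a, a kinase-like protein of coenzyme Q synthesis, had 7727, 8023 and 7787 normalized counts in Control and 6107, 5593 and 5853 in HFD. Its groups stood far apart relative to their spread (log2 fold change -0.42 ± 0.10, adjusted p 0.099 in limma). Coq3, a methyltransferase of the same pathway, had 358, 350 and 328 in Control and 525, 514 and 450 in HFD (log2 fold change 0.52 ± 0.13, adjusted p 0.11 in limma).

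Of 9 genes for ATP synthase regulators and adenine nucleotide exchange, 8 were fitted lower, with a median log2 fold change of -0.11. Atpif1, the inhibitor of the ATP synthase, had 1002, 1077 and 780 normalized counts in Control and 710, 726 and 784 in HFD, with overlap between HFD 3 and Control 3 (log2 fold change -0.35 ± 0.14, adjusted p 0.34 in limma). The next gene, Vdac2, gave -0.19 ± 0.12. Of 16 transcription regulators of respiratory genes, 7 were fitted lower and 9 higher. Ppargc1a, the coactivator PGC-1alpha, had 1092, 1166 and 1470 in Control and 1444, 2091 and 1405 in HFD, where HFD 2 stood above the rest (log2 fold change 0.39 ± 0.17, adjusted p 0.39 in limma). Tfb1m, a mitochondrial rRNA methyltransferase, had a log2 fold change of -0.28 ± 0.21, with all HFD values below all Control values. The same held for Tfam (-0.15 ± 0.12), which makes 2 of the 16 genes, against 9.17% of all genes tested.

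Markers of the cells in the tissue also differed between libraries, and their part in these results was not tested. The atrial markers were all present. Of 8 atrial myocyte genes 7 were fitted lower in HFD, 3 at an unadjusted p under 0.05 (5.55% of all genes), and their summed level was 1066810 to 1128240 normalized counts in Control and 687092 to 1281230 in HFD. Myl7, the atrial myosin light chain, had 60190, 56346 and 58184 in Control and 31186, 27168 and 58765 in HFD, so that HFD 3 stood with the Control libraries for this gene. It lay below all Control libraries for Sln (19799 against 25151 to 27600) and Tnnt2 (99709 against 107918 to 119447). In these 2 of the 8 genes all HFD values lay below all Control values, against 9.17% of all genes tested, and the others overlapped. In bulk tissue, fewer cells of a type and less RNA per cell cannot be told apart. The summed level of 5 ventricular genes was 17448 in Control 2 and 6921 to 9918 in the other libraries.

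Of 7 brown adipocyte genes, which include Cox7a1 and Cox8b, 6 were tested and 4 were fitted higher. Ucp1, the uncoupling protein of brown fat, had 86.2, 5.47 and 15.3 in Control and 706, 173 and 745 in HFD (adjusted p 0.045 in limma). Cidea was also called (adjusted p 0.031 in limma), where 0.484% of all genes were called as higher. Both genes and Dio2 (adjusted p 0.059 in limma) had all HFD values above all Control values, against 8.86% of all genes tested. Cox7a1 and Cox8b were fitted lower. Elovl3 was at 0 in Control 2 and Control 3. The summed level of the 7 genes, most of it Cox7a1 and Cox8b, was 6415 to 8655 in Control and 6002 to 8064 in HFD. Of the other marker lists, 5 of 6 adipocyte, 4 of 4 endothelial, 3 of 3 smooth muscle and 2 of 3 macrophage genes tested were fitted higher. Itgam alone was called (adjusted p 0.011 in limma), where 0.746% of all genes were called. Of the fibroblast genes 1 of 5 was fitted higher, of the epicardial 1 of 3, of the erythroid 1 of 3, of the lymphocyte 1 of 1, of the ventricular 1 of 5 and of the skeletal muscle 0 of 2 tested. The summed levels were 3232 to 5563 in Control and 5879 to 10687 in HFD for the adipocyte genes, 9821 to 10700 and 11973 to 13633 for the endothelial genes, and 2032 to 2441 and 2439 to 2558 for the macrophage genes. Fabp4 made up most of the adipocyte sum, and the other 5 adipocyte genes overlapped between the diets. Of the endothelial genes Pecam1 alone did not overlap, and of the macrophage genes Itgam and Cd68 did not. All HFD values lay above all Control values in each of them, against 8.86% of all genes tested.

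All libraries were also centred on the median of the 91 genes, after division by the size factors, which moves the set towards 0 by construction. With this centring 47 genes were fitted below 0, and the median of all genes tested moved to 0.14. Cox7c and Atp5g2 alone then had an unadjusted p under 0.05, where 2.02% of all genes were lower and 9.55% higher at that level. With the reads of the copies added as well no gene of the set did, against 2.01% of all genes lower and 9.6% higher.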

How the data were processed

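Reads (single-end, 50 bases, directional libraries) were aligned by the authors with STAR to GRCm38. The paper states that uniquely mapped reads were assigned to Ensembl genes with Salmon. Reads were nevertheless listed for Atp5g2, where all 392 windows also occur in another gene, and for Gm12338, whose 192 bases are those of Cox7c. How the rule was applied to such reads was not tested. The deposited signal is the authors' read count divided by a DESeq2 size factor per library, the normalized count. Their fold changes, standard errors, p-values, adjusted p-values and ranking scores were not used. In each library 100% of the values were whole multiples of the smallest (tolerance 0.001), which gave the reads. Strand use in counting and tool versions are not given in the sources used here, so that 27 genes that overlap a gene on the opposite strand are uncertain.

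The unit is not a count, so limma 3.58.1 in R 4.3.3 (lmFit, eBayes with a variance trend, no covariates) was the test, with a pseudocount of 1, a mean of at least 10 and a threshold of 0.05. edgeR 4.0.16 and DESeq2 1.42.0 on the reads were alternatives. In simulated data every gene had the same spread beyond counting error, and no library stood apart from its group. With 15293 genes tested, limma recovered 87 of 99 genes changed by 1 on the log2 scale and 100 of 100 changed by 2. In the same data 15 unchanged genes were called. Changes as small as the median of the set were not simulated. Sequence sharing was counted in windows of 50 bases of GENCODE M21 transcripts, whose names matched 42462 identifiers. The genes, lists and markers were chosen with earlier results of these data known. Named are the 6 lower and 6 higher genes with the smallest p, the isoform pairs, 10 fixed subunits, the highest and lowest gene per complex (1 of them is not reported here), genes at 0 and, of each list, called genes or the 2 with the smallest p. Others, such as Myl7 or Atp5c1, were chosen after their values were seen.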

Additional observations from a re-analysis of the deposited data

How the results depend on the processing

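The median shift of -0.14 is smaller than the median half-width of a gene's 95% interval, 0.30, and the counts of calls depend on single libraries. In limma 114 genes were called, 69 with a log2 fold change over 1 in size as well. The count was 443 in DESeq2, 0 without the variance trend and 14 to 342 without a library. Of the set 0 genes were called, and 1, Cox7c, was called without the filter on low values, in DESeq2 and without HFD 3 (0 to 1 without a library). An unadjusted p under 0.05 was found for 3 genes, for 6 with TMM scaling, 10 with quantile normalization, 1 without the variance trend, 1 with the copies added, 0 with the copies added and centring on the set, and 1 to 14 without a library. The median log2 fold change of the set was -0.20 to -0.05 without a library. The cause was not tested.

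The replicate numbers were not used to pair the libraries. The correlations of same-numbered deviations were 0.12, -0.027 and -0.0039, and not every library correlated best with its own number. With 3 libraries per diet these values cannot exclude a pairing. With the replicate number as a block, 157 of all genes and 0 of the set were called, and 2 of the set had an unadjusted p under 0.05, Cox7c and Atp5g2.

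Over the whole set, 64 genes were fitted below 0 without HFD 2 and 77 without Control 2, against 85 with all libraries. Only the genes named are listed singly here, and among them directions changed for the following. Without a library, the log2 fold change ranged from -0.15 to 0.013 for Cox8a, from -0.20 to 0.020 for Cox4i1, from -0.16 to 0.0079 for Uqcrfs1, from -0.23 to 0.028 for Uqcrq, from -0.12 to 0.26 for Cox6a1, from -0.097 to 0.16 for Ndufb10 and from -0.071 to 0.065 for Uqcr10. The difference of log2 ratios became 0.0012 for Cox8b to Cox8a (range without a library -0.20 to 0.0012) and 0.070 for Atp5g1 to Atp5g3 (-0.088 to 0.070). With TMM scaling Uqcr10 was at -0.00020, and with quantile normalization Atp5b was at 0.14, Ndufb10 at -0.043 and Uqcr10 at -0.029. With the copies added Atp5g2 was at -0.24 and Atp5l at -0.18.

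Centring on the median of the set, an alternative chosen after seeing the data like the addition of copies, left 47 of all genes called, also with the copies added. It shifts the set towards 0 by construction. Complex I was then at 0.020 (0.021 with the copies added), complex II at -0.0086, complex V at 0.011 and the assembly factors at -0.081 (with the copies added -0.0073, 0.012 and -0.080). Of the genes named, those that became positive were Atp5a1 at 0.011 (with the copies 0.013), Atp5b at 0.026 (0.028), Cox4i1 at 0.066 (0.067), Cox7a2 at 0.034 (0.036), Cox8a at 0.050 (0.051), Ndufb4 at 0.048 (0.027), Sdhc at 0.044 (0.045), Uqcrfs1 at 0.052 (0.054) and Uqcrq at 0.049 (0.051). With centring and copies Atp5g1 was at 0.015, Atp5g2 at -0.10 and Atp5l at -0.039. Over all alternatives, 217 values that answer a comparison kept their direction and side of the threshold, or for medians stayed within 1 SD, while 28 moved and 2 reversed. Of the values of single genes 622 were kept, 40 reversed and 3, all of Cox7c, came to pass the threshold.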
